A study of Chlorocebus aethiops with 8 samples.

Results

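Amino acid transporters carry amino acids across the plasma membrane, and 9 genes of this kind were taken from the arrays by their symbols: SLC6A15, SLC7A5, SLC7A11, SLC7A1, SLC3A2, SLC38A1, SLC38A2, SLC1A4 and SLC1A5. The set was chosen because SLC6A15 was higher under siRNA against RNA helicase A (RHA, the product of DHX9), so the siRNA effect on SLC6A15 is described here without a test. A probe set counted as a member where the annotation gave it exactly 1 of these symbols, which left 11 of 52865 probe sets, for 7 genes. No probe set carried the symbol SLC3A2 or SLC38A2 alone, and both genes were not analysed here. The table held 24969 probe sets with 1 symbol in all, for 14133 genes.

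The RNA came from COS cells, a kidney line of the African green monkey that expresses the large T antigen of SV40, and was read by Affymetrix probes of the rhesus macaque. The cells received 0.5 nM siRNAs against the human RHA coding sequence or scrambled control siRNAs in 2 rounds of transfection. In all groups the cells were kept in medium free of serum for 4 hours at transfection and then returned to 10% serum for 24 hours. There were 2 arrays for each of 4 groups: polysomal RNA under RHA siRNA, polysomal RNA under control siRNA, cytoplasmic RNA under RHA siRNA and cytoplasmic RNA under control siRNA. The arrays with replicate number 1 are called set 1 and those with number 2 set 2.

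SLC6A15 is a sodium-driven transporter of neutral amino acids that favours branched-chain amino acids and proline, and is known mainly from the brain. SLC7A5 (an exchanger of large neutral amino acids), SLC7A11 (cystine for glutamate) and SLC3A2 (their shared heavy chain) form heteromeric exchangers. SLC7A1 takes up cationic amino acids. SLC38A1 and SLC38A2 take up glutamine and other small neutral amino acids with sodium, and SLC1A4 and SLC1A5 exchange small neutral amino acids, glutamine among them for SLC1A5. Shortage of amino acids activates the kinase GCN2 and the transcription factor ATF4, and several of these transporter genes are known ATF4 targets.

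Array medians lay between 19.3 and 20.8 (intensity). Of 26383 probe sets tested, 13535 (51.3%) differed between set 1 and set 2 in limma after adjustment, so values within each set are given throughout. One array, cytoplasmic RNA under control siRNA in set 1, correlated least with its set, with a median correlation of 0.949 across probe sets against at least 0.967 for every other array. DHX9 had an intensity of 97.2 and 269 (sets 1 and 2) in polysomal RNA under RHA siRNA, against 359 and 477 under control siRNA, and of 130 and 254 in cytoplasmic RNA under RHA siRNA, against 244 and 342 under control siRNA. In each set and fraction DHX9 was therefore lower with RHA siRNA, in 4 comparisons of 4, although its cytoplasmic groups overlapped (adjusted p in limma over both fractions 1.00, or 0.162 in the blocked model described below). Of 15 kidney tubule markers 7 were bright enough to be tested, among them PAX8, EPCAM, KRT8 and AQP1, while CDH1, LRP2, CUBN and UMOD were not. VIM and 6 other fibroblast markers of 10, and 3 leukocyte markers of 10, were also above that limit, and PTPRC was below it. Only 14 of the kidney tubule, 8 of the fibroblast and 6 of the leukocyte markers had a probe set. The limit kept 50% of all probe sets apart from controls, so no cell type is read from these counts.

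Probe sets were tested when their mean log2 intensity over the 8 arrays lay in the upper 50% (4.32 or more). This kept 8 member probe sets for 6 genes. SLC7A5 (mean log2 4.15), a further probe set of SLC7A11 (4.02) and a further one of SLC1A4 (2.92) were too dim, and their values are given without a test. Intensities of different probe sets depend on the probes and are not compared with each other. A member is led by its brightest probe set.

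**Figure D1:**
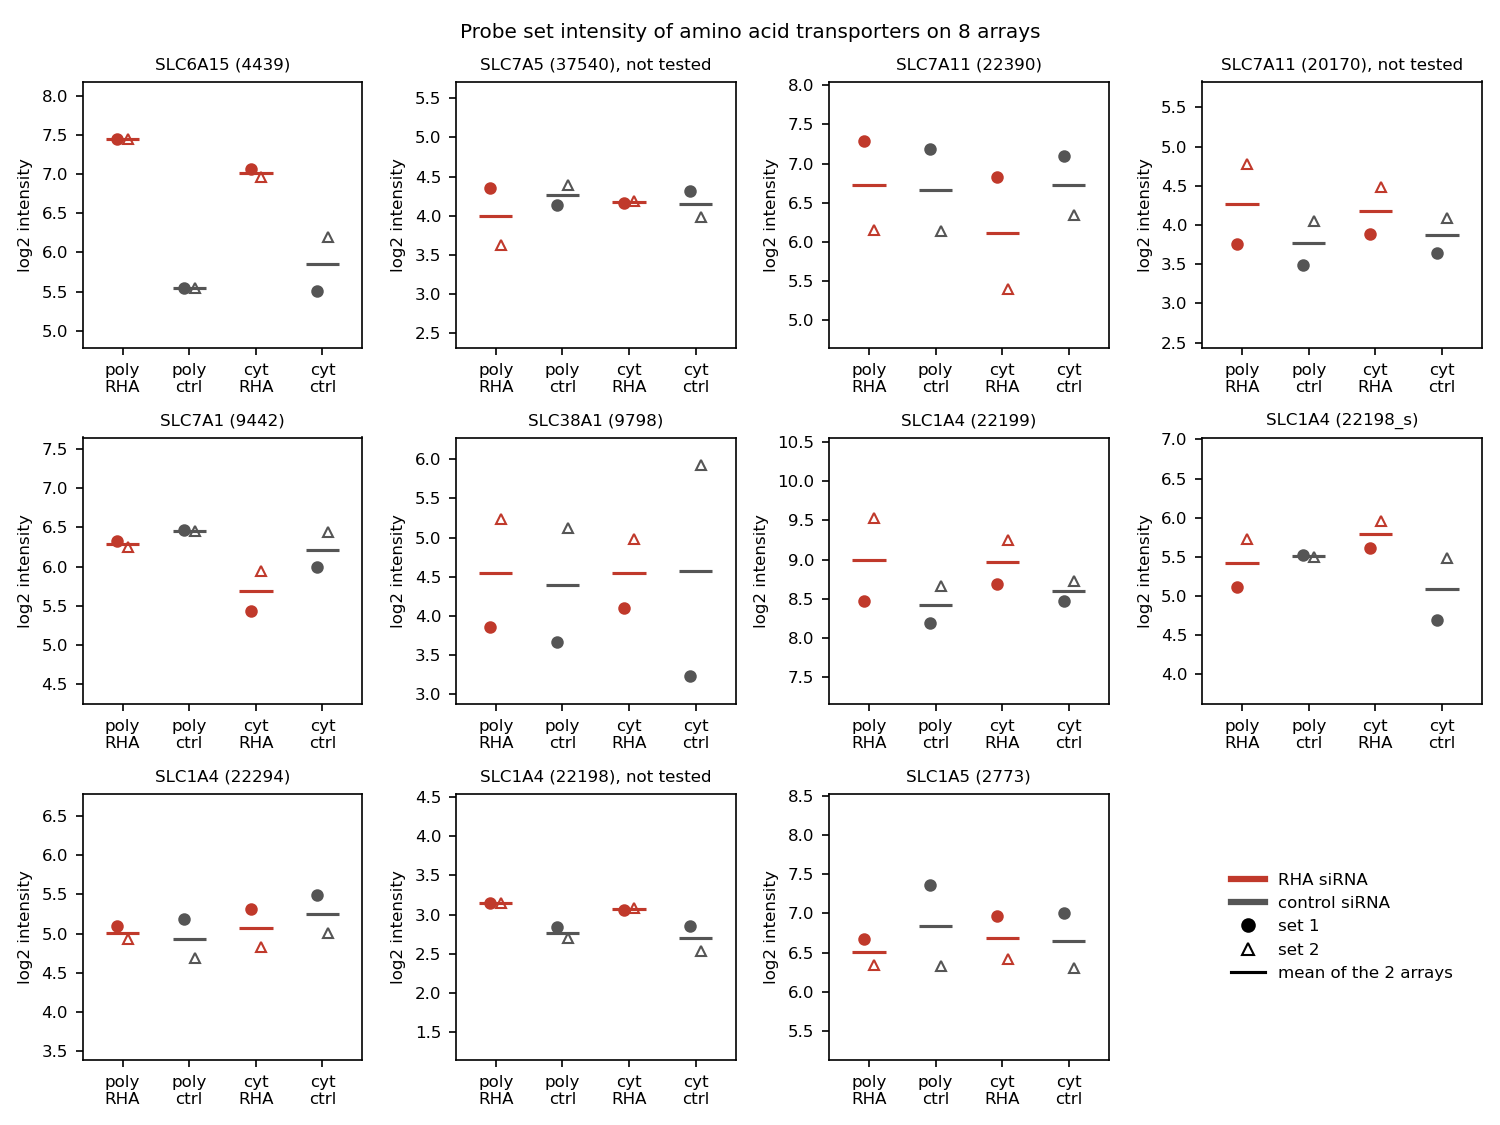
Log2 intensity of the 11 member probe sets (gene, with the number within the probe set name) in polysomal (poly) and cytoplasmic (cyt) RNA under RHA siRNA (red) and control siRNA (ctrl, grey). Circles are set 1, open triangles set 2 and bars the mean of the 2 arrays; each panel spans the same number of log2 units. SLC6A15 lies between 6.97 and 7.45 on the RHA siRNA arrays and between 5.51 and 6.19 on the control arrays, while SLC7A11, SLC38A1 and SLC1A5 separate mainly by set.

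SLC6A15 was read by probe set MmugDNA.4439.1.S1_at. In polysomal RNA its intensity was 174 and 175 under RHA siRNA (sets 1 and 2), against 46.9 and 46.6 under control siRNA. The cytoplasmic values were 134 and 125 under RHA siRNA, against 45.5 and 73.2 under control siRNA. All 4 RHA siRNA arrays were therefore above all 4 control arrays, and the polysomal arrays of 1 siRNA lay closer together than the cytoplasmic ones. The arrays read RNA of whole cultures, in which fewer cells with an RNA and less of it per cell cannot be told apart.

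In polysomal RNA SLC6A15 was 3.74-fold of control (log2 1.90, SE 0.34 in limma; 1.89 in set 1 and 1.91 in set 2). In cytoplasmic RNA it was 2.24-fold of control (log2 1.17, SE 0.34; 1.56 in set 1 and 0.77 in set 2). The cytoplasmic difference between the sets came with the control arrays, since the RHA siRNA arrays had a mean log2 of 7.02 ± 0.07 and the control arrays one of 5.85 ± 0.48 (SD, n = 2 each). In polysomal RNA these were 7.45 ± 0.0055 under RHA siRNA and 5.55 ± 0.0074 under control siRNA (SD, n = 2 each). Over both fractions the gene was 2.90-fold of control (log2 1.53, SE 0.24; 1.73 in set 1 and 1.34 in set 2). When cytoplasmic control array 1 was left out the cytoplasmic log2 fold change was 0.82, and without that of set 2 it was 1.51.

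These values chose the gene and are a description. Higher log2 fold changes than that of SLC6A15 were held by 5 of 26383 tested probe sets in polysomal RNA, 468 in cytoplasmic RNA and 18 over both fractions. Over all tested probe sets, 1.43% had every RHA siRNA array above every control array, and 0.235% had this and a fold change of at least 2 over both fractions. DHX9 itself had log2 fold changes of -1.89 and -0.83 in polysomal RNA of sets 1 and 2 and of -0.91 and -0.43 in cytoplasmic RNA. In polysomal RNA, SLC6A15 thus differed little between the sets while DHX9 was lowered more in set 1. In cytoplasmic RNA both changed more in set 1, with log2 fold changes of 1.56 and 0.77 for SLC6A15 (sets 1 and 2). Whether SLC6A15 followed the depth of the DHX9 decrease was not tested. The difference between the 3' and 5' probe sets of actin, GAPDH and EF1A, a sign of RNA integrity, moved under RHA siRNA by 1.19 and -0.33 (log2, sets 1 and 2) in polysomal RNA and by -1.10 and -0.26 in cytoplasmic RNA. The part of this measure in the values of SLC6A15 was not tested.

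Of the 8 tested member probe sets, 1 (SLC6A15) had every RHA siRNA array above every control array. Of the 7 tested probe sets other than that of SLC6A15, 3 had a log2 fold change above 0 over both fractions and 4 below, with a median of -0.05 beside 0.03 for all probe sets tested. Limma called 0 of 26383 probe sets at an adjusted p under 0.05 in this comparison (0.0%; 540 at an unadjusted p under 0.05). A model with the replicate number as a block, named the block hereafter, called 2 (0.00758%; 3156 at an unadjusted p under 0.05), neither of them among these 7. SLC6A15 was chosen on this comparison and is not read from these fits. The fit in cytoplasmic RNA called 0 (0.0%; 426 at an unadjusted p under 0.05), and that in polysomal RNA 0 (0.0%; 137 at an unadjusted p under 0.05). Without the block these counts at an unadjusted p, and those given below, lay under the share of 0.05 expected with no effect. The fits without the block leave the set difference in their spread, so their p-values run high. A p that misses the threshold in this design does not show that a member stayed level.

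SLC1A4, the exchanger of alanine, serine and cysteine, was the other member whose leading probe set was higher with RHA siRNA in each set and fraction (4 of 4). Its brightest probe set, MmugDNA.22199.1.S1_at, had an intensity of 354 and 737 in polysomal RNA under RHA siRNA (sets 1 and 2), against 292 and 404 under control siRNA. Its cytoplasmic intensity was 413 and 608 under RHA siRNA, against 357 and 425 under control siRNA. Set 2 was above set 1 in every group, so the groups overlapped although each set moved the same way. Over both fractions SLC1A4 was 1.38-fold of control (log2 0.47, SE 0.33; 0.24 in set 1 and 0.69 in set 2). Its adjusted p in limma was 1.00, and 0.383 under the block (SE 0.19; unadjusted 95% interval 0.04 to 0.90). Log2 fold changes were 0.57 in polysomal and 0.36 in cytoplasmic RNA. Of all tested probe sets 9.81% were higher under RHA siRNA in 4 of 4 comparisons, against 2 of 8 member probe sets, of which SLC6A15 is one by choice.

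The other probe sets of SLC1A4 did not all follow the brightest. MmugDNA.22198.1.S1_s_at, whose suffix marks probes shared between transcripts, had a log2 fold change of 0.30 over both fractions (0.26 in set 1 and 0.35 in set 2). It was higher in cytoplasmic RNA (0.93 in set 1 and 0.48 in set 2) but split between the sets in polysomal RNA (-0.41 and 0.23). MmugDNA.22294.1.S1_at had -0.05 (-0.13 in set 1 and 0.03 in set 2). The dim probe set MmugDNA.22198.1.S1_at had an intensity of 8.89 or less on every array, with 0.38 over both fractions and every RHA siRNA array above every control array. The 4 probe sets of SLC1A4 thus gave 3 values above 0 and 1 just below it.

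SLC7A1, the cationic amino acid transporter, was the single member that was lower in 4 of 4 comparisons. Its probe set, MmugDNA.9442.1.S1_at, had an intensity of 80.4 and 76.0 in polysomal RNA under RHA siRNA (sets 1 and 2), against 88.3 and 87.8 under control siRNA. In cytoplasmic RNA it had 43.1 and 61.8 under RHA siRNA, against 63.6 and 86.8 under control siRNA. The siRNA groups did not overlap within either fraction, but the cytoplasmic arrays nearest each other, 61.8 under RHA siRNA and 63.6 under control siRNA, almost met. The log2 fold change was -0.17 in polysomal RNA (-0.13 in set 1 and -0.21 in set 2), -0.52 in cytoplasmic RNA (-0.56 and -0.49) and -0.35 over both fractions (SE 0.24). The adjusted p in limma for both fractions was 1.00, and 0.505 under the block (95% interval -0.77 to 0.07). Lower in 4 of 4 comparisons were 9.02% of all tested probe sets and 1 of 8 member probe sets.

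**Figure D2:**
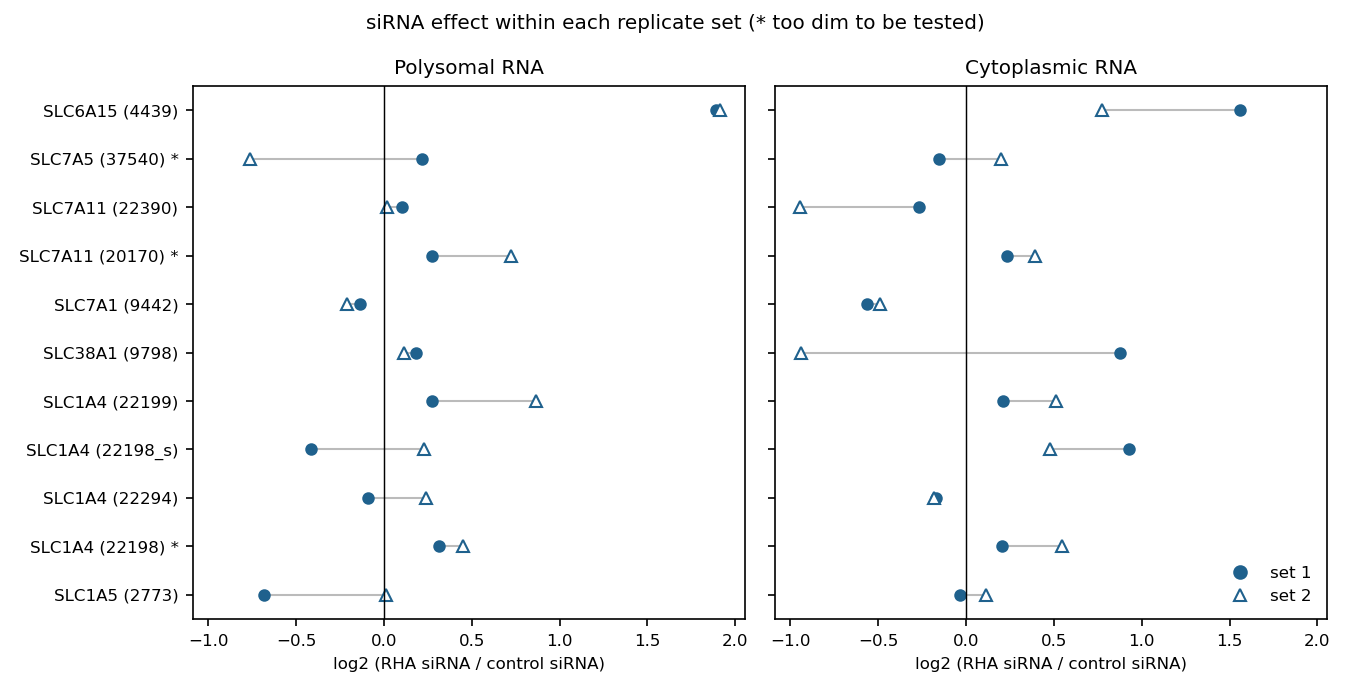
Log2 ratio of RHA siRNA over control siRNA within set 1 (circles) and set 2 (open triangles) for the 11 member probe sets, in polysomal RNA (left) and cytoplasmic RNA (right). SLC6A15 has the highest ratio of the members in both sets of polysomal RNA (1.89 and 1.91), while SLC38A1 lies on opposite sides of 0 in cytoplasmic RNA (0.88 and -0.94).

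SLC7A11, the cystine and glutamate exchanger, depended on the set and on the probe set. Probe set MmugDNA.22390.1.S1_at had an intensity of 157 and 71.3 in polysomal RNA under RHA siRNA (sets 1 and 2), against 146 and 70.3 under control siRNA. The cytoplasmic values were 114 and 42.3 under RHA siRNA, against 137 and 81.3 under control siRNA. Set 1 was above set 2 in every group, by log2 1.10 on average. The log2 fold change was 0.06 in polysomal RNA (0.10 in set 1 and 0.02 in set 2) and -0.61 in cytoplasmic RNA (-0.27 and -0.94). The adjusted p in limma was 1.00 for each fraction, and 0.402 for cytoplasmic RNA under the block. The dim probe set MmugDNA.20170.1.S1_at had the opposite direction in cytoplasmic RNA, with 0.31 there and 0.50 in polysomal RNA, and intensities of 11.2 to 27.4. A direction for SLC7A11 is therefore not given.

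SLC7A5, the exchanger of large neutral amino acids, had intensities of 12.4 to 21.0 on the 8 arrays and was too dim to be tested. In polysomal RNA it had 20.4 and 12.4 under RHA siRNA (sets 1 and 2), against 17.6 and 21.0 under control siRNA, and in cytoplasmic RNA 17.9 and 18.2 under RHA siRNA, against 19.9 and 15.8 under control siRNA. The groups overlapped in both fractions and the sets went opposite ways.

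SLC38A1, the sodium-coupled glutamine transporter, lay just above the limit for testing (mean log2 4.52) and varied most between the sets. Its intensity was 14.5 and 37.8 in polysomal RNA under RHA siRNA (sets 1 and 2), against 12.8 and 34.8 under control siRNA, and 17.2 and 31.7 in cytoplasmic RNA under RHA siRNA, against 9.38 and 60.7 under control siRNA. The lowest and the highest value were both on cytoplasmic control arrays. Its log2 fold change was 0.15 in polysomal RNA and -0.03 in cytoplasmic RNA (0.88 in set 1 and -0.94 in set 2).

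SLC1A5, the exchanger that takes up glutamine, had an intensity of 102 and 81.0 in polysomal RNA under RHA siRNA (sets 1 and 2), against 164 and 80.4 under control siRNA. Its cytoplasmic intensity was 125 and 85.2 under RHA siRNA, against 128 and 78.9 under control siRNA. The polysomal control array of set 1 was the highest of the 8, and the other pairs were close. The log2 fold change was -0.34 in polysomal RNA (-0.68 in set 1 and 0.01 in set 2), 0.04 in cytoplasmic RNA and -0.15 over both fractions. For both fractions the adjusted p in limma was 1.00, and 0.804 under the block.

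The siRNA groups were also set apart by overlap, counted over 8 member probe sets, which are too few to read a difference in share from. In cytoplasmic RNA 2 of 8 member probe sets (SLC6A15 and the shared probe set of SLC1A4) were higher under RHA siRNA without overlap, against 10.5% of all tested, and 1 of 8 (SLC7A1) was lower, against 8.9%. In polysomal RNA 1 of 8 (SLC6A15) was higher, against 7.91%, and 1 of 8 (SLC7A1) was lower, against 7.79%. SLC6A15 was chosen on these contrasts, so its share in the counts carries no weight.

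The level on polysomes relative to the cytoplasm, averaged over both siRNAs, did not use the siRNA effect that chose SLC6A15. SLC6A15 had a log2 ratio of polysomal over cytoplasmic RNA of 0.06 (SE 0.24; 0.21 in set 1 and -0.08 in set 2), close to the median of 0.07 over all probe sets tested. The adjusted p in limma was 1.00, and 0.947 under the block (95% interval -0.38 to 0.51). The fit called 0 probe sets (0.0%; 59 at an unadjusted p under 0.05). Split by siRNA, the ratio of SLC6A15 was 0.43 under RHA siRNA (0.38 in set 1 and 0.49 in set 2) and -0.30 under control siRNA (0.04 and -0.65). Those 2 fits called 0 probe sets each (0.0% and 0.0%; 70 and 55 at an unadjusted p under 0.05). Unlike the average, the split ratios of SLC6A15 are tied to the values that chose it and are a description.

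The order of SLC6A15 over the groups was polysomal RHA siRNA, cytoplasmic RHA siRNA, cytoplasmic control and polysomal control, by geometric mean intensities of 175, 130, 57.7 and 46.8. The polysomal and cytoplasmic RHA siRNA groups did not overlap, nor did the cytoplasmic RHA siRNA and control groups. Of all tested probe sets, 10.1% were higher without overlap in the first of these comparisons and 10.5% in the second. The 2 control groups overlapped: the cytoplasmic control array of set 1 (45.5) was below both polysomal control arrays. SLC6A15 was chosen on its siRNA effect, so this order is a description.

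SLC7A1 had the highest polysomal over cytoplasmic ratio of the members, with a log2 ratio of 0.42 (SE 0.24; 0.69 in set 1 and 0.16 in set 2), higher in polysomal RNA in 4 of 4 comparisons. The adjusted p in limma was 1.00, and 0.858 under the block (95% interval 0.002 to 0.84). Higher in 4 of 4 were 8.67% of all tested probe sets and 1 of 8 member probe sets, and lower in 4 of 4 were 6.3% and 0 of 8. Of the other leading probe sets, SLC7A11 had a ratio of 0.27, SLC1A5 of 0.004, SLC1A4 of -0.08 and SLC38A1 of -0.09, each with an adjusted p in limma of 1.00, and of 0.858 to 0.998 under the block. Under RHA siRNA 2 of 8 member probe sets (SLC6A15 and SLC7A1) were higher in polysomal RNA without overlap, against 10.1% of all tested. Under control siRNA it was 2 of 8 (SLC7A1 and the shared probe set of SLC1A4), against 8.67%. SLC6A15 was chosen for its level under RHA siRNA, so its part in the count under RHA siRNA carries no weight.

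**Figure D3:**
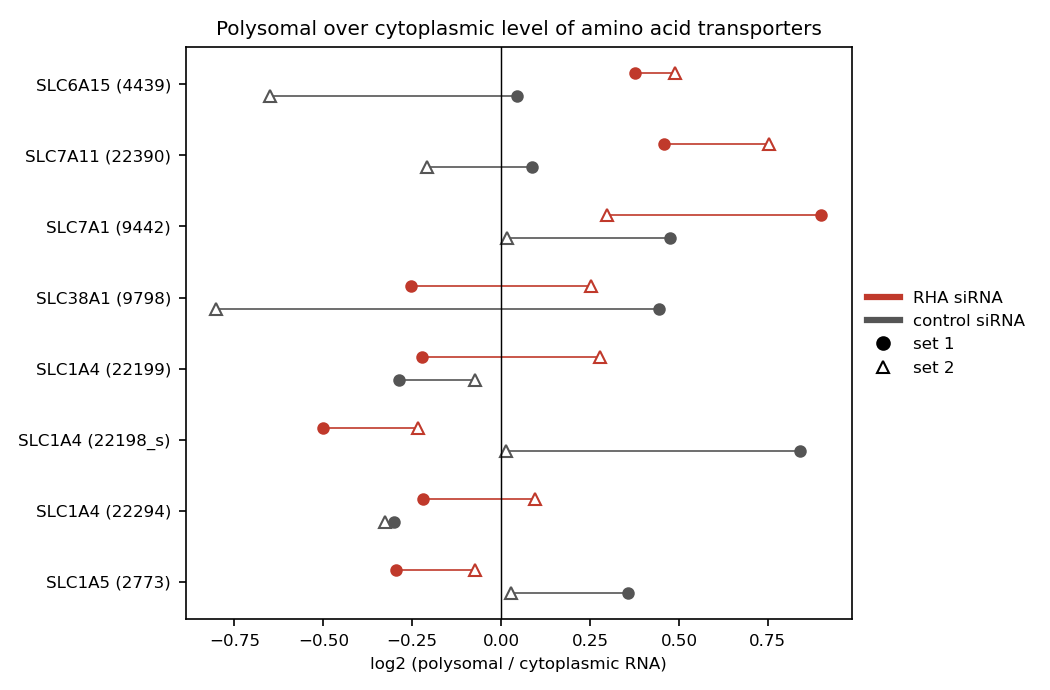
Log2 ratio of polysomal over cytoplasmic intensity for the 8 tested member probe sets under RHA siRNA (red) and control siRNA (grey), in set 1 (circles) and set 2 (open triangles). SLC6A15, SLC7A11 and SLC7A1 lie above 0 in both sets under RHA siRNA, and SLC7A1 also does so under control siRNA (0.47 and 0.02).

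The change in polysome loading was the polysomal minus the cytoplasmic siRNA effect, which is what the series set out to measure. With equal RNA input per array, only loading relative to other RNAs was measured. SLC6A15 had a change of 0.74 (log2, SE 0.48; 0.33 in set 1 and 1.14 in set 2), which is given without a test. It was 1.08 without the cytoplasmic control array of set 1 and 0.39 without that of set 2. SLC7A11 had 0.67 (0.37 in set 1 and 0.96 in set 2) and SLC7A1 0.35 (0.43 and 0.28). The brightest probe set of SLC1A4 had 0.21, its shared one -0.79 (-1.34 in set 1 and -0.25 in set 2) and MmugDNA.22294.1.S1_at 0.25. SLC38A1 had 0.18 (-0.70 in set 1 and 1.06 in set 2) and SLC1A5 -0.38 (-0.65 and -0.10). The fit called 0 probe sets (0.0%; 46 at an unadjusted p under 0.05). The adjusted p in limma of each of the 7 probe sets other than that of SLC6A15 was 1.00, and 0.967 to 0.988 under the block. Of these 7, 5 lay above 0, with a median of 0.21 beside -0.02 for all probe sets tested. SLC1A4 enters this count with each of its tested probe sets, and the share of all tested probe sets above 0 was not counted. All members share the same 8 arrays.

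The set difference was also read for each tested member probe set. Of all tested probe sets 51.3% differed between the sets, so a difference is not read as a trait of single members. Set 2 was above set 1 by log2 1.60 for SLC38A1 (adjusted p in limma = 0.00246) and by 0.58 for the brightest probe set of SLC1A4 (adjusted p = 0.0314). Set 2 minus set 1 was -1.10 for SLC7A11 (adjusted p in limma = 0.0016) and -0.66 for SLC1A5 (adjusted p = 0.0169). SLC6A15 had a set difference of 0.15 (adjusted p in limma = 0.549) and SLC7A1 of 0.22 (0.339). The other tested probe sets of SLC1A4 went opposite ways. MmugDNA.22198.1.S1_s_at had 0.43 (adjusted p in limma = 0.0935) and MmugDNA.22294.1.S1_at -0.41 (0.0663).

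By pattern over the 8 arrays, after the mean of each set was taken off, the probe sets most like SLC6A15 were those of NUFIP2, an RNA-binding protein (Pearson's r = 0.994), LOC699013 (0.985), EMC8, a subunit of the endoplasmic reticulum membrane protein complex (0.980), SOX6, a transcription factor (0.977), and CBFB, a partner of RUNX factors (0.974). Their log2 fold changes over both fractions were smaller, at 0.61 for NUFIP2, 0.57 for LOC699013, 0.37 for EMC8, 0.70 for SOX6 and 0.25 for CBFB. They were picked from 16064 probe sets over the same 8 arrays, and 172 probe sets had an r above 0.9. Likeness to a gene chosen for its rise under RHA siRNA favours probe sets that rise too. Their fold changes are therefore a description. Among the members the brightest probe set of SLC1A4 had an r of 0.761 to SLC6A15. The other tested probe sets of SLC1A4 had 0.41 (MmugDNA.22198.1.S1_s_at) and -0.12 (MmugDNA.22294.1.S1_at). SLC38A1 had an r of 0.294, SLC7A11 one of -0.23, SLC7A1 one of -0.40 and SLC1A5 one of -0.55.

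The rest of the amino acid transporter family was read from 40 further genes, of which 34 had a probe set and 17 were bright enough to be tested. Over both fractions 9 of 17 lay above 0 and 8 below, with a median of 0.01 beside 0.03 for all probe sets, and limma called 0 of them in either direction, with or without the block. SLC6A6, the taurine transporter and a relative of SLC6A15, had a polysomal intensity of 49.6 and 204 under RHA siRNA (sets 1 and 2), against 42.5 and 83.7 under control siRNA. In cytoplasmic RNA it had 47.7 and 248 under RHA siRNA, against 24.0 and 76.3 under control siRNA. It was 2.07-fold of control over both fractions (log2 1.05; 0.61 in set 1 and 1.49 in set 2), with 1.00 as adjusted p in limma and 0.177 under the block. Higher in 4 of 4 comparisons were 2 of 17 (SLC6A6 and SLC6A18), near the 9.81% of all probe sets, and 0 of 17 were lower in all 4. SLC1A3, a glutamate transporter, had 0.40 (-0.31 in set 1 and 1.11 in set 2), SLC38A5, a glutamine transporter, 0.24, and SLC38A9, an arginine sensor of the lysosome, -0.31 (-0.76 and 0.14).

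Of 32 listed genes of the amino acid response other than transporters, 22 had a probe set and 21 were bright enough to be tested. Over both fractions 16 of 21 lay above 0, with a median of 0.15 (0.12 in set 1 and 0.18 in set 2) beside 0.03 for all probe sets. In cytoplasmic RNA it was 17 of 21 (median 0.21, beside 0.05 for all probe sets) and in polysomal RNA 12 of 21 (median 0.06, beside 0.01). The share of all tested probe sets above 0 was not counted, so these counts alone do not set the list apart. Higher in 4 of 4 comparisons were 5 of 21 (ATF4, DDIT3, CHAC1, HERPUD1 and ALDH18A1) and lower in 4 of 4 were 3 of 21 (ATF3, PYCR1 and SHMT2, named after their values were seen, as was ALDH18A1), against 9.81% higher and 9.02% lower over all tested probe sets. Limma called 0 of 21, with or without the block.

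For DDIT3, which encodes a transcription factor induced by stress, the arrays gave a polysomal intensity of 541 and 735 under RHA siRNA (sets 1 and 2), against 362 and 391 under control siRNA, and a cytoplasmic one of 885 and 667 under RHA siRNA, against 281 and 310 under control siRNA. It was 2.09-fold of control over both fractions (adjusted p in limma 1.00, and 0.140 under the block). CHAC1, which degrades glutathione, had a log2 fold change of 0.79 (0.68 in set 1 and 0.89 in set 2), HERPUD1, a protein of the endoplasmic reticulum, 0.77 (0.17 and 1.37), and ATF4 itself 0.43 (0.63 and 0.22). The list thus held genes that were higher and genes that were lower in every comparison, with log2 fold changes of -0.27 for ATF3, -0.31 for PYCR1 and -0.35 for SHMT2.

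The genes that sense amino acids at the lysosome and pass the signal to mTORC1 gave 21 with a probe set of 25 listed, and all 21 were tested. Over both fractions 12 of 21 lay above 0, with a median of 0.01 beside 0.03 for all probe sets, and limma called 0, with or without the block. Higher in 4 of 4 comparisons were 3 of 21, near the 9.81% of all tested probe sets: LAMTOR4 (log2 0.39; 0.04 in set 1 and 0.73 in set 2) and LAMTOR5 (0.37; 0.58 and 0.16), subunits of Ragulator, and the GTPase RRAGC (0.27, named after its value was seen). Lower in all 4 were 0 of 21, against 9.02%. RRAGB, another Rag GTPase, had -0.41 (-0.87 in set 1 and 0.05 in set 2).

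**Figure D4:**
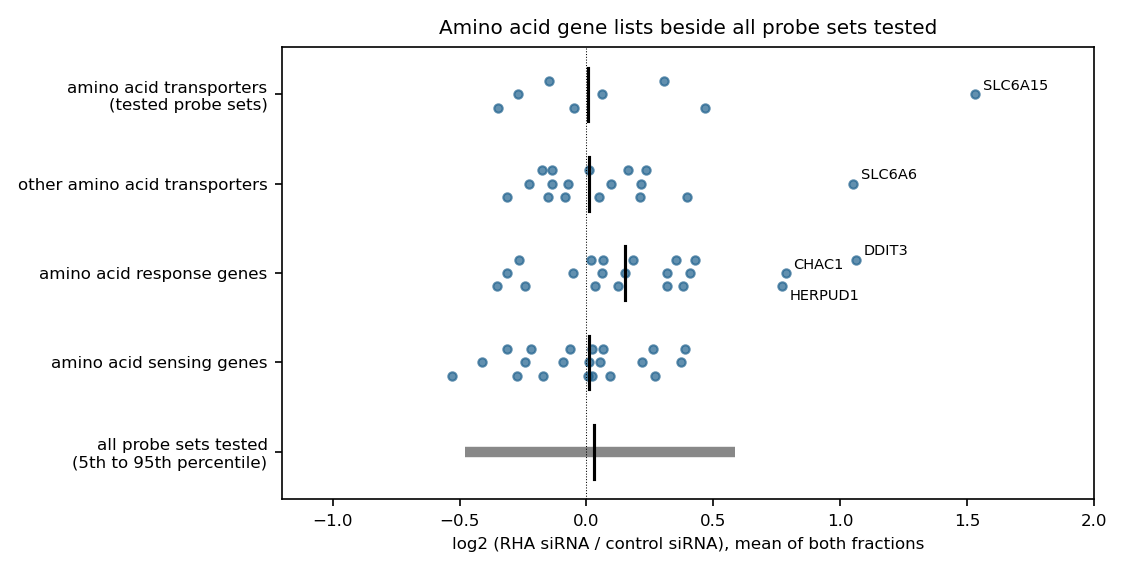
Log2 ratio of RHA siRNA over control siRNA, mean of both fractions, for the 8 tested member probe sets and for the tested genes of 3 lists (points), with the median of each row (black bars). The grey bar spans the 5th to the 95th percentile of all 26383 tested probe sets (-0.48 to 0.58). SLC6A15 (1.53), SLC6A6 (1.05), DDIT3 (1.06), CHAC1 (0.79) and HERPUD1 (0.77) lie above that bar.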

How the data were processed

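The deposited values are linear intensities, 1 per probe set, for 8 arrays, with medians close to each other, and these were taken as normalised by the authors. Per the submitters' processing notes GCOS and RMA were used, with no version or role, and 25 ng of RNA was amplified and labelled per array, per the labels' protocols. Arrays have no read depth, and their number limits the precision. Of 52865 probe sets 99 were Affymetrix controls and were left out. Symbols came from GEO's platform annotation, which can be old.

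Values were put on the log2 scale and compared by 7 two-sided contrasts of the 4 groups, using lmFit and eBayes of limma 3.58.1 (R 4.3.3) without a block. Benjamini-Hochberg adjustment ran over the 26383 tested probe sets (upper 50% by mean log2), and an adjusted p under 0.05 counted as called. The replicate block adds the replicate number to the model, and its 95% intervals are unadjusted. Alternatives were the block, an offset of 16, quantile normalisation, no filter, the upper 25%, and leaving out each array. Fits were tested on simulated data. The named genes were all member probe sets, DHX9, up to 4 genes per list by smallest p over both fractions, and the 5 probe sets most like SLC6A15. The members and lists were chosen with earlier results of these data known. No label states that replicates are separate cultures, and the spread behind each p-value may be technical.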

Additional observations from a re-analysis of the deposited data

Results flagged for a closer look

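For 3 member probe sets both sets moved one way under one condition and the opposite way under the other. The difference itself, the change in polysome loading, was tested in limma and did not pass. How many of all tested probe sets had such a pattern was not counted, so it is not read as a trait of the members. Some of the values lay near 0. SLC7A11 (MmugDNA.22390.1.S1_at) was higher under RHA siRNA in polysomal RNA (0.10 in set 1 and 0.02 in set 2) and lower in cytoplasmic RNA (-0.27 and -0.94). Its log2 change in loading was 0.67 (adjusted p in limma 1.00, or 0.967 with the replicate block). The shared probe set of SLC1A4 (MmugDNA.22198.1.S1_s_at) was lower in polysomal than in cytoplasmic RNA under RHA siRNA (-0.50 in set 1 and -0.23 in set 2) and higher under control siRNA (0.84 and 0.01), with a change of -0.79 (adjusted p in limma 1.00, or 0.967 with the block). SLC1A5 did likewise (-0.29 and -0.07 under RHA siRNA, 0.36 and 0.03 under control siRNA), with a change of -0.38 (adjusted p in limma 1.00, or 0.967 with the block).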

How the results depend on the processing

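The siRNA effect on SLC6A15 is described without a test here too, and no other member value passed under any alternative. Of 38 member values 24 changed sign when an array was left out, with or without the block, and 5 in another setting; the cause was not tested. The siRNA effect on SLC6A15 kept its sign throughout, at 1.35 to 1.71 over both fractions, 1.80 to 2.01 in polysomal RNA and 0.81 to 1.53 in cytoplasmic RNA (1.29 and 1.60 over both fractions and in polysomal RNA with an offset of 16), and that on the brightest probe set of SLC1A4 at 0.20 to 0.73, both fractions. Same-numbered arrays deviated from their group means together (r of 0.68 to 0.868 across probe sets), but the labels do not say what the numbers mark, so the fit without the block was kept as the main one. The comparisons within a set do pair arrays by that number. The fit without the block leaves the set difference in its spread. Over both fractions its SE was 0.49 for SLC7A11 (MmugDNA.22390.1.S1_at), against 0.18 with the block, and 0.71 for SLC38A1, against 0.28. With the replicate block limma called 2 probe sets over both fractions and changed no call of a tested member value. With an array left out, calls ranged from 0 to 954 over both fractions, 0 to 1150 in cytoplasmic RNA, 0 to 274 between fractions and 0 to 748 between fractions under control siRNA, each maximum in the blocked fit that left out cytoplasmic control array 2. Leaving out array 1 of that group, the block called 33 over both fractions.

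Log2 values over fits without 1 array spanned 0, over both fractions, for SLC7A11 (-0.63 to 0.086), SLC38A1 (-0.61 to 0.73), SLC1A5 (-0.41 to 0.11) and MmugDNA.22294.1.S1_at of SLC1A4 (-0.18 to 0.075). In polysomal RNA they did for SLC7A11 (-0.51 to 0.63), SLC7A1 (-0.37 to 0.030), SLC38A1 (-0.58 to 0.87), SLC1A5 (-0.85 to 0.18), the shared probe set of SLC1A4 (-0.40 to 0.21) and MmugDNA.22294.1.S1_at (-0.18 to 0.33). In cytoplasmic RNA they did for SLC7A11 (-1.32 to 0.11), SLC38A1 (-1.38 to 1.32), SLC1A5 (-0.31 to 0.39) and MmugDNA.22294.1.S1_at (-0.42 to 0.067). The change in loading did for SLC7A11 (-0.049 to 1.38), SLC38A1 (-1.17 to 1.53), SLC1A4 (-0.32 to 0.74) and SLC1A5 (-0.89 to 0.14). The polysomal over cytoplasmic ratio did for SLC6A15 (-0.12 to 0.24; -0.66 to 0.056 under control siRNA), SLC7A11 (-0.086 to 0.63), SLC38A1 (-0.76 to 0.58), SLC1A4 (-0.34 to 0.19) and SLC1A5 (-0.25 to 0.26). Quantile normalisation turned the ratio of SLC6A15 (-0.018) and SLC1A5 (-0.14) and the cytoplasmic siRNA effect of SLC38A1 (0.0017) and SLC1A5 (-0.10), and the offset that of SLC38A1 over both fractions (-0.033).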

Other observations

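Between the fractions, averaged over both siRNAs, few genes of the other lists differed in the same direction in all 4 comparisons within a set. Among the sensing genes 2 of 21 were higher in polysomal RNA (RRAGB and TSC1) and 2 were lower (SLC38A9 and RHEB). Among the response genes 2 of 21 were higher (ATF3 and HERPUD1) and 1 was lower (NUPR1). Of the other transporters 0 of 17 were higher and 3 were lower (SLC6A18, SLC43A2 and SLC38A9, which is in both lists). Over all tested probe sets 8.67% were higher and 6.3% were lower in all 4. These genes were named after their values were seen. RRAGB, a Rag GTPase, had a polysomal intensity of 31.1 and 48.3 under RHA siRNA (sets 1 and 2) against a cytoplasmic one of 23.0 and 21.8, and under control siRNA a polysomal one of 67.7 and 34.7 against a cytoplasmic one of 35.5 and 28.4. Its log2 ratio of polysomal over cytoplasmic RNA was 0.70 (0.68 in set 1 and 0.72 in set 2), with 1.00 as adjusted p in limma and 0.858 under the block.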
